A study of Harpegnathos saltator with 47 samples.

Results

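In the brains of the ponerine ant Harpegnathos saltator, 100 genes were described that had their lowest level in gamergates, the workers that have become egg layers. They were chosen from the deposited expression table, which gives each gene in each ant as RPKM, reads set in proportion to the length of the gene and the depth of the library. The table held 18429 genes, and in 10195 of them the mean of the ants was 1 RPKM or more. For each of these, the group value was the median of log2(RPKM + 1) in sequencing batch B and in sequencing batch C, averaged over both. In 2495 genes gamergates had the lowest of the 3 group values and the gap between the lowest and the middle group was wider than the gap between the middle and the highest. The 100 genes with the widest lower gap were taken. The measured levels in batches B and C therefore chose the genes, and differences between gamergates and workers in those batches are a description. Fits that include these ants are given with their calls, from which nothing is read. The lower gap was 2.15 on the log2 scale for Hsal_09095.2, which ranked first. At the edge of the list it was 0.501 for both Hsal_09567 and Hsal_03696, just inside, and 0.497 for Hsal_01786 and 0.493 for Hsal_10373, just outside.

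The tissue was the brain without its optic lobes, and its polyA RNA was sequenced with the strand kept. The ants were 12 gamergates and 11 workers, all taken from transition nests, and 10 workers of stable colonies. A transition nest was set up by moving 30 newly emerged females and 3 males out of a mature colony, so that it had no dominant reproductive, and its ants were killed after 120 days. Reproductive status was scored from the ovaries. The labels mark the workers of stable colonies with day 120 too, and the sources used here describe no treatment of them. The labels name no genetic change in any group. Which ants came from the same nest is not in the labels, so the spread between ants may hold effects of the nest.

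Harpegnathos workers can mate, and when a colony loses its reproductive they duel with their antennae in contests that last for weeks. The winners become gamergates: their ovaries develop, they lay fertilised eggs and they stop hunting. The losers stay workers, which forage, hunt and tend the brood. Gamergates also live much longer than workers, and the change of role goes along with a change in the brain. A gene is thus called lowest in gamergates by its group value over batches B and C. That value was higher both in workers that lived through the contests and in workers of colonies where no contest was set up. In single batches and single ants the order can differ. In bulk tissue, fewer cells of a type and less RNA per cell cannot be told apart.

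The files name genes by ID only. Of the 18429 IDs, 0 matched the reference table of gene names, and roles, positions and sequences of the genes are not given here. For the same reason the labelled tissue was not checked against marker genes, and no list of neuropeptides, hormones or other products was applied.

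Libraries held 3904943 to 11159675 reads in genes. Batches are those of the run dates that the library names carry. The first, batch A, had 2 gamergates with 2 transition workers, the next, batch B, had 5 ants of each group, and the last, batch C, had 5 gamergates, 4 transition workers and 5 stable workers. Names of libraries also begin with b, H or ND, whose meaning is not given. In batch A both gamergates had b and both transition workers ND, so that prefix and caste cannot be told apart there. In the other batches every gamergate but gamergate 12 had b, and every stable worker had H or ND. Prefix and group are thus hard to tell apart between gamergates and stable workers too. Some libraries stood apart in these genes: gamergates 9 and 11 of batch C lay among workers in many of them, and transition worker 6 of batch B lay among gamergates in many but not all. In Hsal_12731 and Hsal_16448 transition worker 6 had 1791 and 451 RPKM, above every gamergate. Without gamergates 9 and 11 the rule kept 81 of the 100 genes, and without transition workers 4, 6 and 10 it kept 74.

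The widest gap belonged to Hsal_09095.2. Its level ran from 3.93 to 47.0 RPKM in gamergates with a median of 6.98, from 10.5 to 72.1 RPKM in transition workers with a median of 38.3, and from 31.9 to 145 RPKM in stable workers with a median of 51.5. In 10 of the 12 gamergates it was below every one of the 21 workers, and the exceptions were gamergates 9 and 11, at 22.5 and 47.0 RPKM. Differences are given on the log2(RPKM + 1) scale, where those of low genes come out too small. The difference was -2.01 (SE 0.33) between gamergates and transition workers and -2.61 (SE 0.34) between gamergates and stable workers.

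Hsal_05445 was the most abundant of the leading pair. It ran from 14.4 to 248 RPKM in gamergates with a median of 54.7, from 114 to 656 RPKM in transition workers with a median of 323, and from 164 to 596 RPKM in stable workers with a median of 302. Again 9 of 12 gamergates lay below every worker, and gamergates 9 and 11, at 225 and 248 RPKM, lay well inside the range of workers. The log2 difference was -2.29 (SE 0.36) against transition workers and -2.22 (SE 0.37) against stable workers. The workers of both kinds overlapped over most of their range in this gene.

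**Figure D1:**
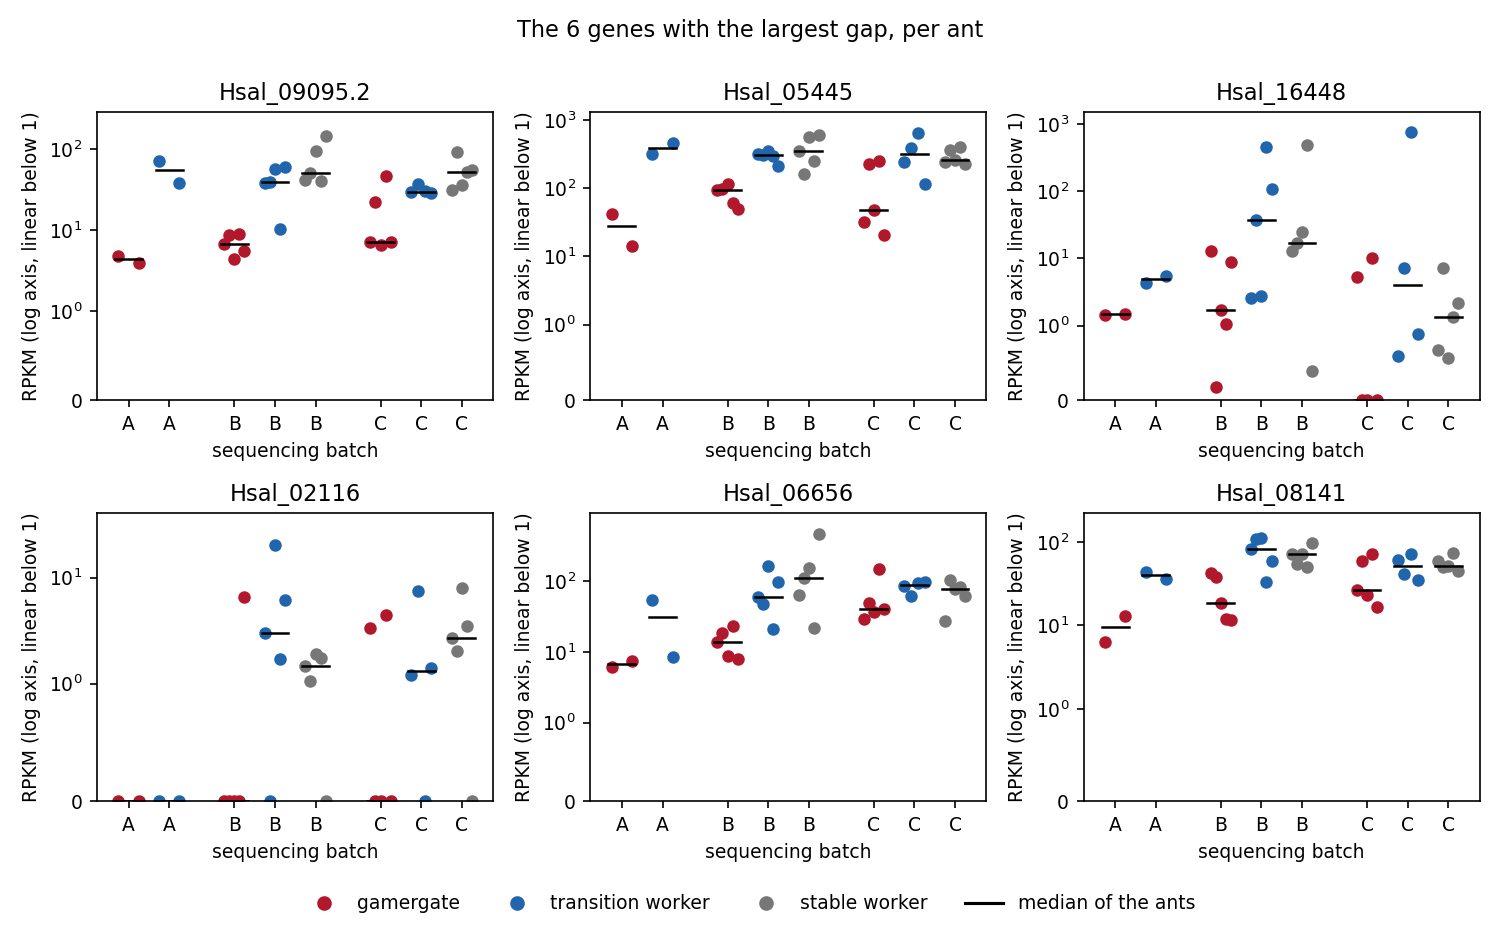
RPKM of the 6 genes with the widest lower gap in each of 33 ants (y axis, logarithmic above 1 RPKM and linear below), by sequencing batch (x axis), with gamergates in red, transition workers in blue, stable workers in grey and a black line at the median of the ants. Hsal_09095.2, Hsal_05445 and Hsal_08141 show most gamergates under the workers, while Hsal_16448 is very high in a few workers only and Hsal_02116 is at 0 in ants of every group.

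Hsal_16448, next by its gap, was of another kind. It ran from 0 to 13.0 RPKM in gamergates with a median of 1.47, from 0.598 to 745 RPKM in transition workers with a median of 5.47, and from 0.398 to 486 RPKM in stable workers with a median of 4.67. Only a few workers were high: transition workers 6, 7 and 10 had 451, 107 and 745 RPKM, and stable worker 4 had 486. The groups overlapped at the low end, and 4 of 12 gamergates lay below every worker. In batch B the medians were 1.68 RPKM in gamergates, 36.5 in transition workers and 16.9 in stable workers, and in batch C they were 0, 4.02 and 1.32 RPKM in the same order.

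Hsal_02116, with rank 4, was near the limit of detection. Its gene model has 86 bases and the median library held 1 read of it. It was at 0 in 15 of the 33 ants, 9 of them gamergates, and its highest value was 6.56 RPKM in gamergates, 20.3 RPKM in transition workers and 7.95 RPKM in stable workers. In 0 gamergates was it below every worker, since workers without a read occurred in both kinds.

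The next genes were more abundant than Hsal_02116. Hsal_06656 had a median of 20.8 RPKM in gamergates, against 61.3 in transition workers and 79.8 in stable workers. Its groups overlapped: gamergates reached 147 RPKM, the lowest worker had 8.33 RPKM, and 3 of 12 gamergates lay below every worker. Hsal_08141 ran from 6.30 to 72.8 RPKM in gamergates with a median of 20.9, from 33.6 to 112 RPKM in transition workers with a median of 59.1, and from 45.7 to 98.0 RPKM in stable workers with a median of 56.7. In Hsal_08141, 8 of 12 gamergates lay below every worker.

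Hsal_12731 was variable in all groups. It ran from 1.03 to 412 RPKM in gamergates, from 4.04 to 1791 RPKM in transition workers and from 11.3 to 843 RPKM in stable workers. The medians were 23.0 RPKM in gamergates, 97.8 in transition workers and 63.7 in stable workers, and 2 gamergates lay below every worker. Hsal_09613 was lower but steadier: its median was 4.03 RPKM in gamergates, against 11.7 in transition workers and 13.3 in stable workers, and 6 gamergates lay below every worker.

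Of the other genes among the first 20, most belonged to the same range of levels. Hsal_04906 had a median of 13.2 RPKM in gamergates, 31.6 in transition workers and 30.9 in stable workers. Hsal_16993 had 19.6 RPKM in gamergates, 37.5 in transition workers and 48.2 in stable workers. The ranges overlapped in both genes, and 3 gamergates lay below every worker in each.

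Hsal_08140 had a median of 22.0 RPKM in gamergates, 39.7 in transition workers and 45.8 in stable workers, and 7 gamergates lay below every worker. Hsal_05944 had 9.97 RPKM in gamergates, 18.3 in transition workers and 19.7 in stable workers. Hsal_00642 had 35.3 RPKM in gamergates, 69.3 in transition workers and 63.6 in stable workers, and 6 gamergates lay below every worker. Separation was weaker in Hsal_07922 and Hsal_01483. Hsal_07922 ran from 2.42 to 39.5 RPKM in gamergates, from 2.63 to 52.2 RPKM in transition workers and from 9.64 to 75.4 RPKM in stable workers. Hsal_01483 ran from 15.6 to 103 RPKM in gamergates, from 12.5 to 182 RPKM in transition workers and from 53.1 to 270.0 RPKM in stable workers. In both genes the lowest worker was transition worker 6, which lay above 1 gamergate in Hsal_07922 and below all gamergates in Hsal_01483.

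Hsal_13198 was among the most abundant, with a median of 128 RPKM in gamergates, 255 in transition workers and 387 in stable workers. Hsal_03795 had 4.15 RPKM in gamergates, 14.0 in transition workers and 11.9 in stable workers, with 6 gamergates below every worker. Hsal_17169, Hsal_07084 and Hsal_03427 had medians of 0.598, 2.05 and 12.3 RPKM in gamergates, against 1.52, 7.64 and 14.2 RPKM in transition workers and 0.818, 6.75 and 14.3 RPKM in stable workers. For Hsal_17169 and Hsal_03427 the ranges of the groups nearly coincide, with 0 and 2 gamergates below every worker.

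Separation by single ants was therefore the exception. At least 6 of the 12 gamergates were below every worker in 9 of the 100 genes, against 0.258% of all 11234 rows that were tested, and in 37 genes 0 gamergates were. Since the rule used these ants for the most part, nothing is read from this count. Besides the genes above, Hsal_01481 had 9 gamergates and Hsal_13197 had 8 below every worker, although they ranked 77 and 88. Their differences were -0.73 and -0.53 on the log2 scale between gamergates and transition workers. The spread of the 100 genes between ants of the same group and batch was wide, with a median SD of 0.76 on the log2 scale, against 0.37 over all tested rows.

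The 4 ants of batch A had no part in the order of the groups or the gaps that chose the genes, and hold the same measure in gamergates and transition workers. They entered the rule through the minimum mean of 1 RPKM, which was taken over all 33 ants. With that mean taken over batches B and C only, the rule kept 99 of the 100 genes, since Hsal_17038 then had 0.998 RPKM. Both gamergates lay below both transition workers in 49 of the 100 genes. Over all 11234 tested rows, those with a mean of at least 0.5 RPKM, this share was 20.7%. The reverse order, both gamergates above both transition workers, held for 4 of the 100 genes and for 22.0% of all rows. The difference of the means was below 0 in 82 of the 100 genes and in 51.1% of all rows. Its median was -0.66 on the log2(RPKM + 1) scale, against -0.01 over all rows. Leaving out transition worker 2 brought the count of genes with the gamergates below to 74, where the share of all rows was 40.1%.

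Of the first 20 genes by gap, 15 had both gamergates below both transition workers in batch A and 1, Hsal_13198, had both above. The other 4 were Hsal_02116, which was at 0 in all 4 ants, and Hsal_17169, Hsal_05944 and Hsal_03427, whose groups overlapped. The most negative difference was that of Hsal_05445, which had 41.3 and 14.4 RPKM in gamergates, against 323 and 458 RPKM in transition workers, a log2 difference of -3.92 (SE 0.56). Hsal_09095.2 had 4.82 and 3.93 RPKM in gamergates, against 72.1 and 38.8 RPKM in transition workers, a log2 difference of -3.33 (SE 0.35). The groups did not overlap in either gene.

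Hsal_12731 had 22.2 and 144 RPKM in gamergates, against 666 and 750 RPKM in transition workers, a log2 difference of -3.61 (SE 0.96). Hsal_03795 had 3.09 and 3.14 RPKM in gamergates, against 92.0 and 23.3 RPKM in transition workers, a log2 difference of -3.53 (SE 0.71). Hsal_08141 had 6.30 and 13.1 RPKM in gamergates, against 43.4 and 36.3 RPKM in transition workers, a log2 difference of -2.01 (SE 0.37). The groups were apart in these 3 genes as well, in Hsal_12731 in spite of the spread between gamergates.

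In 4 genes of the list the order turned round, with both gamergates above both transition workers: Hsal_04056, Hsal_06849, Hsal_17388 and Hsal_13198. Hsal_06849, with 1038 bases and a median of 64 reads per library, had 14.1 and 9.85 RPKM in gamergates, against 7.15 and 5.80 RPKM in transition workers, a log2 difference of 0.78 (SE 0.26). Hsal_04056, with 131 bases and a median of 6 reads, had 1.25 and 1.32 RPKM in gamergates and was at 0 in both transition workers. Its difference of 1.19 (SE 0.15) was the most positive of the list. In Hsal_17388, with a median of 2 reads, all 4 ants were under 1 RPKM, and in Hsal_13198 the lower gamergate had 75.2 RPKM, against 70.2 and 72.5 RPKM in transition workers. Next in the size of the difference after Hsal_04056 came Hsal_12325 at 0.93 (SE 0.69) and Hsal_13900 at 0.83 (SE 1.25). Their groups overlapped, and the median library held 1 and 2 reads of them.

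No single gene passed the test in batch A. In limma with Benjamini-Hochberg adjustment over all rows, 0 of the 100 genes and 0.0% of all rows had an adjusted p under 0.05, and an exact permutation test of 2 against 2 ants cannot go below a p of 0.333. At an unadjusted p under 0.05 in limma, 39 of the 100 genes were lower in gamergates and 2 higher, against 6.25% and 5.66% of all rows. With limma's voom on the whole reads recovered from the RPKM values, 8 of the 100 genes were called, all lower in gamergates, where 0.329% of all rows were called lower: Hsal_01483, Hsal_04906, Hsal_05290, Hsal_05445, Hsal_05957, Hsal_08682, Hsal_09095.2 and Hsal_09107. With no filter on low values limma called Hsal_04056 higher in gamergates, where 0.633% of all rows were called higher. Over the settings tried, the adjusted p of Hsal_05445 in batch A ran from 0.0322 to 0.729 in limma, and that of Hsal_09095.2 from 0.0487 to 0.729. In these ants prefix and caste cannot be told apart.

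**Figure D2:**
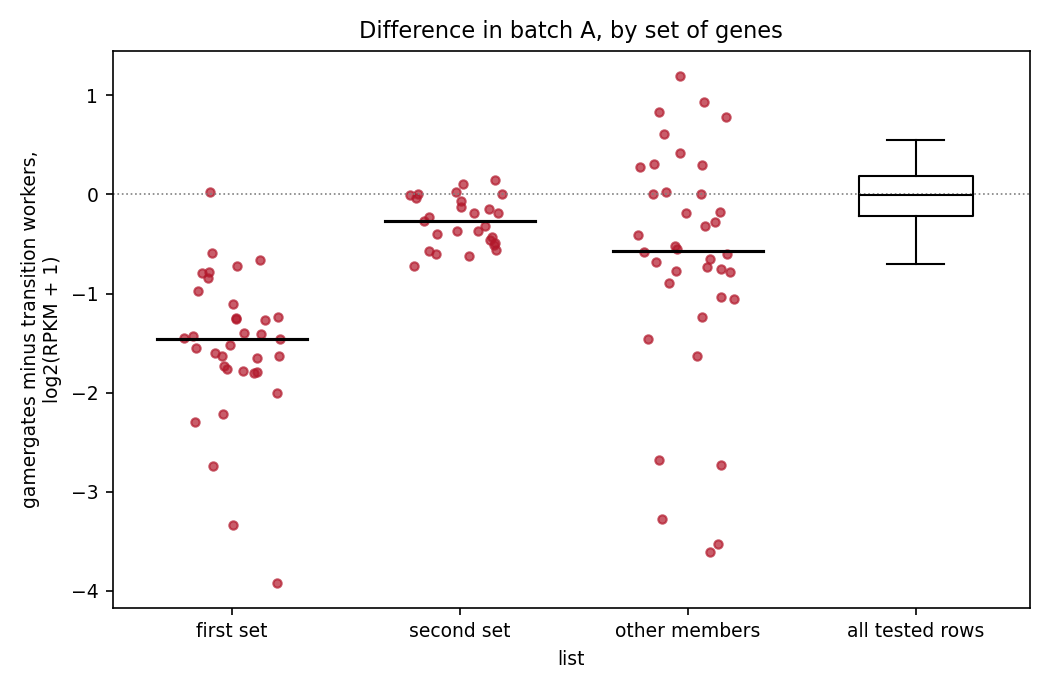
Difference in mean log2(RPKM + 1) between 2 gamergates and 2 transition workers of batch A (y axis) for the 35 genes of the first set, the 27 of the second set and the 38 other members (1 red point per gene, black line at the median, points shifted sideways for display), with a box for all 11234 tested rows (box from the 25th to the 75th percentile, whiskers from the 5th to the 95th). The first set lies almost wholly below 0, with a median of -1.46, the second has a median of -0.27, and the box of all rows is centred near 0.

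The 100 genes did not vary as one. Residuals from the mean of each group and batch were correlated between genes over all 33 ants, and the median over pairs of the 100 genes was 0.0709, against 0.0397 over pairs of all tested rows. Clustering the residuals of the 29 ants of batches B and C, with average linkage cut at a correlation distance of 0.7, gave a set of 35 genes, a set of 27 genes and 38 genes in clusters of at most 5. Within the first set the median pair correlation over these 29 ants was 0.52, and within the second it was 0.80. These sets were found after the data had been seen, from ants that share a library across genes, and the correlations are descriptions. The ants of batch A were left out of the clustering.

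The first set of 35 genes held most of the top ranks: Hsal_09095.2, Hsal_05445, Hsal_06656, Hsal_08141, Hsal_04906, Hsal_16993, Hsal_08140, Hsal_07922, Hsal_05944, Hsal_00642 and Hsal_01483 of the first 20. In batch A, 31 of its 35 genes had both gamergates below both transition workers and 0 had both above, and the median difference was -1.46. In the second set of 27 genes, 3 had both gamergates below and 0 both above, with a median of -0.27. Of the 38 other genes, 15 had both below and 4 both above, with a median of -0.57. Genes of a set move together from ant to ant, so each count weighs far fewer independent values than genes.

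The sets also differed in gene length, which the rule did not use. Its median was 1582 bases in the first set, 623 bases in the second and 678 bases in the other 38 genes, against 1520 bases over all tested rows. The mean level entered the rule only through its minimum. Its median was 28.1 RPKM in the first set, 10.9 RPKM in the second and 6.69 RPKM in the others, against 15.5 RPKM over all rows. Behind these levels stood a median of 272 reads per gene and library in the first set, 54 in the second and 11 in the others. The first set was thus about as long as the average gene and more deeply read than the rest of the list, while the second was short.

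**Figure D3:**
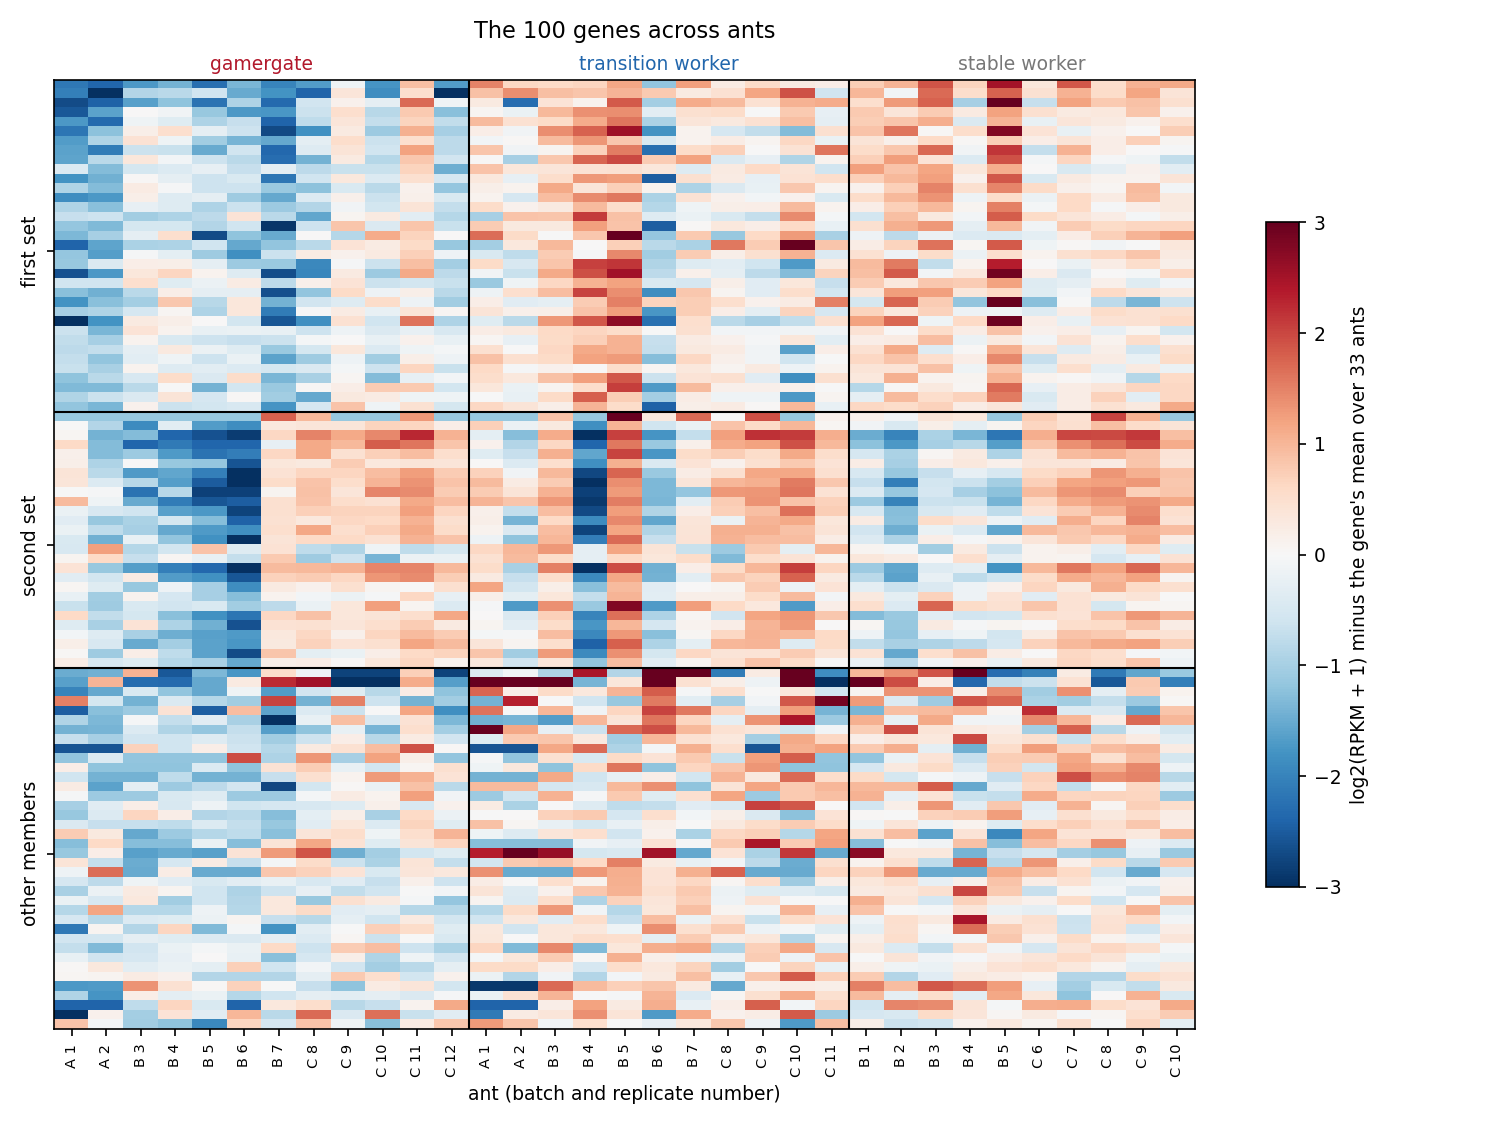
Level of the 100 genes (rows, grouped into the first set, the second set and the other members, by rank within each) in 33 ants (columns, gamergates, transition workers and stable workers, each labelled by batch and replicate number), as log2(RPKM + 1) minus the mean of the gene over the 33 ants, in blue where lower and red where higher, with the colour limited to 3 in either direction. The first set is blue in nearly all gamergates and in transition worker 6. The second set is blue in gamergates 3 to 6, in transition workers 4 and 6 and in several stable workers of batch B.

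In the first set most gamergates lay below the workers. In batches B and C this is the order that the rule selected, and batch A had no part in it. The mean level, as log2(RPKM + 1) averaged over the 35 genes, was 3.18 and 3.25 in the gamergates of batch A, against 4.90 and 4.59 in its transition workers. In batch B the 5 gamergates had 4.34, 4.43, 3.86, 4.01 and 3.05, against 5.24, 5.68, 5.99, 3.71 and 4.94 in transition workers and 5.07, 5.40, 5.37, 4.68 and 6.11 in stable workers. In batch C the 5 gamergates had 3.77, 4.78, 4.16, 5.12 and 3.90, against 4.74, 4.61, 4.83 and 4.69 in transition workers and 4.53, 4.92, 4.84, 4.89 and 4.93 in stable workers. Transition worker 6 stood among gamergates, and gamergates 9 and 11 stood among or above the workers. All other gamergates of batches A, B and C lay below every other worker of their own batch.

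Some ants of different castes share a library name prefix. The values of these ants helped to choose the genes, so they are a description and show nothing of the part of the prefix. In batch C the single gamergate whose name begins with H, gamergate 12, had a mean level of 3.90 in the first set, below all 9 workers of that batch, whose names begin with H as well. All 35 genes of the set were below the median of the workers of its batch in this ant. In Hsal_09095.2 this gamergate had 7.15 RPKM, against 28.9 to 37.4 RPKM in transition workers and 31.9 to 93.3 RPKM in stable workers of batch C. In batch B the 5 gamergates and transition workers 5, 6 and 7 carry b, and those 3 transition workers had first-set levels of 5.99, 3.71 and 4.94. All 5 gamergates lay below transition workers 5 and 7, and gamergate 7 alone lay below transition worker 6.

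The ants that stood apart in the first set were in part those that stand apart in Hsal_10714, which is no member and has its highest levels in gamergates. Gamergates 9 and 11, with first-set levels in the range of workers or above it, had 0 and 1.29 RPKM of Hsal_10714, where workers had at most 1.80 RPKM. Gamergates 1 and 5, with 0.795 and 0.421 RPKM of it, had first-set levels of 3.18 and 3.86, within those of the other gamergates. Transition worker 6, with a first-set level of 3.71 among gamergates, had 0 RPKM of Hsal_10714, within the range of workers.

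**Figure D4:**
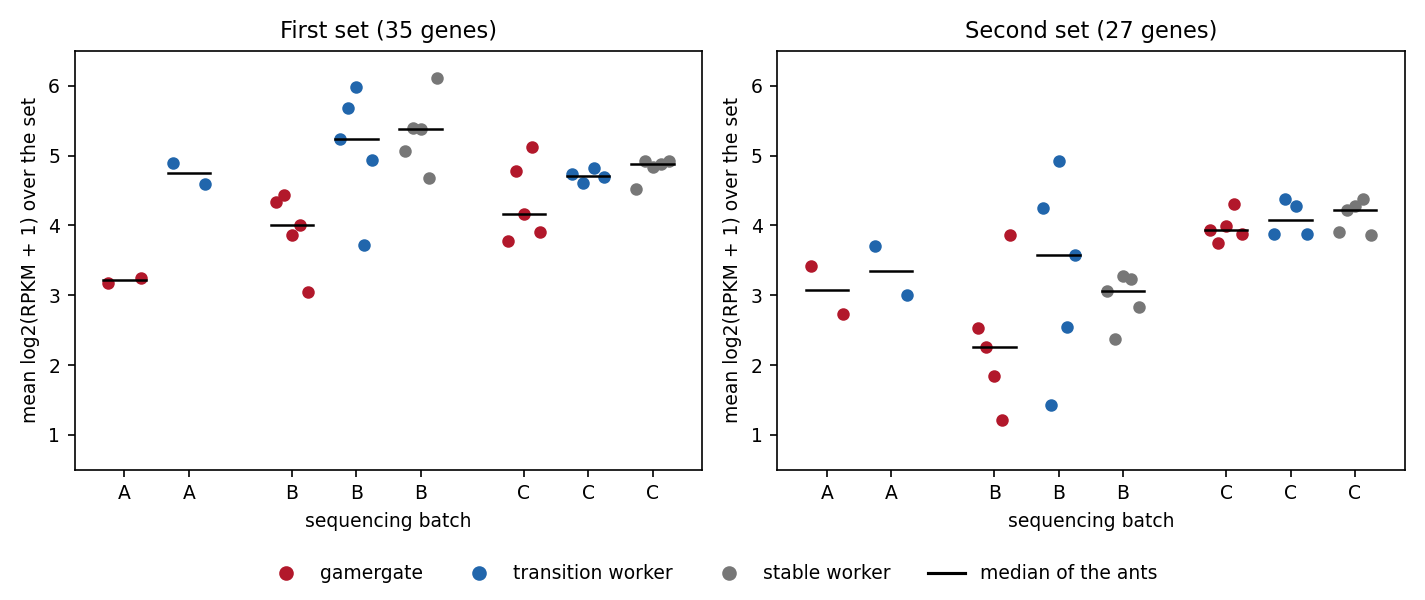
Mean log2(RPKM + 1) over the 35 genes of the first set (left) and the 27 genes of the second set (right) in each ant (points; y axis), by sequencing batch (x axis), with gamergates in red, transition workers in blue, stable workers in grey and a black line at the median of the ants. In the first set the gamergates of batch A have 3.18 and 3.25, under 4.90 and 4.59 in transition workers, and in the second set the levels run from 1.22 to 4.91 in batch B and from 3.75 to 4.38 in batch C, with the groups mixed.

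In the second set the groups overlapped in all 3 batches. Its mean level in batch B was 2.53, 2.25, 1.84, 1.22 and 3.87 in gamergates, against 4.24, 1.43, 4.91, 2.55 and 3.58 in transition workers and 3.07, 2.37, 3.28, 3.23 and 2.83 in stable workers. The highest gamergate was above every stable worker and the lowest transition worker was below all gamergates but 1. In batch C the levels were 3.75 to 4.31 in gamergates, 3.87 to 4.38 in transition workers and 3.86 to 4.38 in stable workers, so that the groups coincided. In batch A they were 3.41 and 2.74 in gamergates and 3.70 and 3.00 in transition workers, and these overlap.

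Genes outside the list shared the second pattern widely. Of 11134 other tested rows, 2580, or 23.2%, had residuals over the 29 ants correlated above 0.5 with the mean of the second set, and 415, or 3.73%, with the mean of the first set. In batch A, 15.4% of these 2580 rows had both gamergates below both transition workers, and 69.4% of the 415 did, against 20.7% of all tested rows, and the median differences were -0.07 and -0.37. Rows of each kind vary together over the same 4 ants, and the difference between both kinds was not tested. The length of the genes and the batch move with the second set, and their part in its gap was not tested. Other settings gave sets that shared 29 to 35 genes with the first set and 25 to 27 with the second, except the clustering of batch C alone. Its closest cluster to either set was one of 35 genes, which held 15 genes of the first set and 13 of the second, and 18 of the 35 had both gamergates below in batch A.

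The 38 other genes held several of the widest gaps. Hsal_16448, Hsal_07084, Hsal_07018, Hsal_07017 and Hsal_11172 formed a cluster of 5, and Hsal_09613, Hsal_13198, Hsal_03795, Hsal_06997 and Hsal_12652 another. Hsal_06997 ran from 4.04 to 16.7 RPKM in gamergates with a median of 7.27, from 6.75 to 19.4 RPKM in transition workers with a median of 11.5, and from 7.54 to 18.4 RPKM in stable workers with a median of 12.5. In 5 gamergates it was below every worker, and the medians of all 3 groups were lower in batch B than in batch C. The difference of gamergates from transition workers was -0.65 (SE 0.13), -0.59 within batch B and -0.56 within batch C.

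Hsal_12731 and Hsal_04811 fell into 1 cluster, and both were very uneven between ants. Hsal_04811 had 1.05 and 4.17 RPKM in the gamergates of batch A, against 22.4 and 41.8 RPKM in transition workers. In batches B and C it ran from 0.457 to 15.9 RPKM in gamergates, from 0.566 to 26.7 RPKM in transition workers and from 0.721 to 28.6 RPKM in stable workers. The groups were apart in batch A and overlapped over nearly their whole range in the other batches.

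Hsal_13136 and Hsal_05364 were abundant, in another cluster of 5. Hsal_13136 had 114 and 94.0 RPKM in the gamergates of batch A, against 190 and 160 RPKM in transition workers. Hsal_05364 had 56.2 and 58.0 RPKM in gamergates, against 107 and 85.3 RPKM in transition workers of that batch. Both were below the transition workers there by less than 1 log2 unit, at -0.75 and -0.73, and in 0 gamergates below every worker of all batches. The lowest worker in both genes was transition worker 10, at 77.1 and 45.6 RPKM. The next lowest was stable worker 3 at 136 RPKM in Hsal_13136 and transition worker 6 at 70.6 RPKM in Hsal_05364. Most gamergates lay below these next values.

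The difference of gamergates from transition workers is given by batch. Its median over the 100 genes was -0.66 for batch A, -0.99 for batch B and -0.21 for batch C, against -0.01, -0.06 and 0.07 over all tested rows. Gamergates had the lower mean in all 3 batches in 59 of the 100 genes and in 16.0% of all rows. The rule used the average of batches B and C, which leans to the batch with the wider differences. Gamergates had the lower mean in 99 of the 100 genes in batch B and in 74 in batch C. The difference between these batches is thus shaped by the rule, and nothing is read from it. In limma the difference between batches passed an adjusted p of 0.05 in 0 of the 100 genes and in 0.0% of all rows, and at an unadjusted p under 0.05 it was more negative in batch C for 1 gene and less negative in batch C for 6, against 0.908% and 1.85% of all rows. The difference between batches had a median of 0.79 over the 100 genes and of 0.15 over all rows.

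Hsal_05944, at 2.01, had the widest such difference of the list. In batch B it had 2.68 to 21.8 RPKM in gamergates, against 29.5 to 69.7 RPKM in transition workers, which do not overlap. In batch C it had 5.77 to 30.3 RPKM in gamergates, against 8.61 to 18.3 RPKM in transition workers, which do. The log2 difference between castes was -1.99 in batch B and 0.01 in batch C, and gamergates 9 and 11 had the highest 2 values of the batch C gamergates.

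In the fit of all 33 ants with a term for the batch, calls are a description, since 29 of these ants chose the genes. With an adjusted p under 0.05 in limma, 5 of the 100 genes were lower in gamergates than in transition workers, where 0.0534% of all rows were. They were Hsal_05445, Hsal_09095.2, Hsal_08141, Hsal_09613 and Hsal_06997. Against stable workers 8 of the 100 genes were called lower, where 0.16% of all rows were: the same 5 with Hsal_00068, Hsal_00642 and Hsal_03459. Both comparisons share the gamergates, and 0 calls remained in either when the prefix of the library names entered the model, or against transition workers when batch A was left out. Only gamergate 12 shares a prefix with any stable worker, so the fit with the prefix cannot tell prefix and group well apart. Without gamergate 11, 13 of the 100 genes were called lower against transition workers, where 0.142% of all rows were, and 13 against stable workers, where 0.294% were. Without transition worker 6, 16 were called against transition workers, where 0.205% of all rows were.

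Hsal_00068 ran from 12.5 to 40.9 RPKM in gamergates, from 17.0 to 61.7 RPKM in transition workers and from 29.9 to 90.9 RPKM in stable workers. Hsal_03459 ran from 2.49 to 9.20 RPKM in gamergates, from 3.51 to 17.8 RPKM in transition workers and from 7.19 to 23.2 RPKM in stable workers. In both genes the stable workers started higher than the transition workers, and the log2 differences were -1.02 (SE 0.21) and -1.21 (SE 0.23) between gamergates and stable workers, against -0.87 (SE 0.20) and -0.82 (SE 0.22) between gamergates and transition workers.

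Transition and stable workers were not told apart by any gene of the list. In limma 0 of the 100 genes had an adjusted p under 0.05 between them, where 0.0089% of all rows did, and 0 had an unadjusted p under 0.05. The rule keeps the gap between both kinds of worker small, so nothing is read from this. The median difference of transition from stable workers was 0.05 over the 100 genes and 0.00 over all rows.

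The authors' deposited table compares gamergates with transition workers and rests on the same ants. In it 14 of the 100 genes were lower in gamergates with an adjusted p under 0.05, where 0.3% of the 11983 rows with an adjusted p were. These 14 genes were Hsal_09095.2, Hsal_05445, Hsal_16448, Hsal_08141, Hsal_09613, Hsal_04906, Hsal_03795, Hsal_00642, Hsal_00068, Hsal_13136, Hsal_05364, Hsal_01481, Hsal_13780 and Hsal_03251. With gamergates on top, the authors' deposited table gives log2 fold changes of -1.64 for Hsal_09095.2, -1.81 for Hsal_05445 and -2.15 for Hsal_16448. These 3 are quoted because they rank 1 to 3 by gap, and Hsal_03795, with rank 17, had -1.88. Since the same ants chose the genes, nothing is read from these values.

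Some genes of the list carry neighbouring IDs. There were 7 pairs of consecutive IDs among the 100 genes, holding 14 of them. The residuals of 4 of these pairs were closely correlated over ants, at 0.97 for Hsal_16992 with Hsal_16993, 0.95 for Hsal_08140 with Hsal_08141, 0.91 for Hsal_08682 with Hsal_08683 and 0.84 for Hsal_07017 with Hsal_07018. The other 3 pairs had 0.43, 0.27 and -0.17, and the median over all 8504 consecutive pairs of tested genes was 0.18. Whether consecutive IDs are neighbours in the genome, or share reads as parts or copies of 1 gene, the sources used here do not say, so the members of the 4 pairs are uncertain as separate genes.

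The abundant pair of these showed the same order of groups in both genes. Hsal_08682 had 76.6 and 84.3 RPKM in the gamergates of batch A, against 302 and 200 RPKM in transition workers. Hsal_08683 had 44.0 and 36.4 RPKM in gamergates, against 77.5 and 62.1 RPKM in transition workers. The difference was larger in Hsal_08682, at -1.60 on the log2 scale, than in Hsal_08683, at -0.78.

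The list was compared with the 100 genes that the mirrored rule takes as highest in gamergates. In batch A, 32 of those had both gamergates above both transition workers and 18 had both below, against 22.0% and 20.7% of all rows, and their median difference was 0.20. The genes lowest in gamergates had 49 in their own direction and 4 against it. The difference between both lists was not tested.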

How the data were processed

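The authors deposited RPKM values for 33 ants, 1 column per ant, although 14 ants had 2 sequencing runs; the sources used here do not say whether both runs entered. STAR 2.5.0b and DESeq2 are named in the submitters' processing notes; build, annotation and counting settings are not given there. The authors' deposited table, per the file headers, holds a mean signal, a log2 fold change with workers on top, whose sign was turned round here, and p-values with adjusted p-values. Low RPKM values step by whole reads, and reads were recovered from them. Of the 15320 rows above 0 in at least 2 ants, 100% gave whole reads within 0.01 reads, with 404997 values recovered. This also gave gene lengths. In rows with few ants above 0 such a fit is easily found, so it is no check there.

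The genes and sets were chosen with earlier results of these data known. Log2(RPKM + 1) was tested in limma 3.58.1 (R 4.3.3, eBayes with a trend), two-sided, with Benjamini-Hochberg adjustment over the 11234 rows whose mean reached 0.5 RPKM and a threshold of 0.05. Batch A was fitted alone, and all 33 ants with groups and batch as terms. Named genes were the first 20 by gap, those called in any of these fits or in the authors' deposited table, ranks 99 to 102, and the 3 most negative and 3 most positive differences in batch A. Other genes were named after their values were seen: Hsal_13197, Hsal_08682, Hsal_08683, Hsal_04811, Hsal_06849, Hsal_17388, Hsal_17038, Hsal_10714 and the members of named clusters, consecutive pairs and the voom calls. The fits were tested on simulated data, in which genes outside those of the widest spread were lowered in gamergates. Of 50 genes lowered by 1 log2 unit, the fit of all ants called 45 against transition workers and 46 against stable workers. The fit of batch A called 0 of 50 at a log2 change of -1, 7 at -2, 32 at -3 and 48 at -4. The genes of the list had a wide spread, with a median SD within groups and batches of 0.76, against 0.37 over all tested rows. The shares called in the simulation therefore cannot be carried over to the genes of the list. Alternatives were the pseudocount, the filter, quantile and median-ratio scaling, voom on recovered reads, the prefix, single batches, the replicate number as a block, and leaving out each ant. No sample was left out of the RPKM table.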

Additional observations from a re-analysis of the deposited data

Results flagged for a closer look

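Stable worker 4 stood far above the other stable workers in Hsal_16448, with a log2(RPKM + 1) of 8.93, or 486 RPKM, where the other 9 ran from 0.398 to 24.4 RPKM. It was the single such case among 23 measures examined in the 10 stable workers, the levels of the first 20 genes and of the lists; chance gives about 1 in 20. The groups of 12 and 11 ants were too large for this rule.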

How the results depend on the processing

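Genes lower in gamergates than in transition workers numbered 5 over all ants, 3 with quantile normalization, 2 with voom on recovered reads, 2 with the replicate block, and 0 with the library name prefix, with batches B and C only, with batch B alone and with batch C alone. Against stable workers they numbered 8, and 5 with no filter on low values, 4 with quantile normalization, 3 with median-ratio scaling, 2 with voom, 1 with the replicate block, 0 with the prefix, 2 with batches B and C only, 3 with batch B alone and 0 with batch C alone. Over these settings 0.0% to 0.0623% of all rows were called lower against transition workers and 0.0% to 0.16% against stable workers. Leaving out 1 ant gave 2 to 16 calls against transition workers and 2 to 13 against stable workers, where 0.0178% to 0.205% and 0.0267% to 0.294% of all rows were called; the first count moved by over 1.5 times without any 1 of gamergates 1, 2, 4, 6, 7, 9, 10, 11 and 12 and transition workers 1, 2, 3, 5, 6 and 10, the other without gamergates 1, 2, 4 to 8 and 10 to 12, stable workers 2 to 5, 7, 9 and 10 and transition workers 1 to 4 and 8. In batch A, voom called 8 genes, all lower, where it called 0.329% of all rows lower, and having no filter on low values called Hsal_04056, higher; leaving out 1 ant gave 57 to 74 genes with all gamergates below, where 28.2% to 41.1% of all rows were so ordered, and a median difference of -0.92 to -0.59. The rule kept 65 of the 100 genes with a pseudocount of 0.1, 59 with means in place of medians, 55 with batch A included, 63 with batch B alone, 26 with batch C alone and 72 to 92 without 1 ant. The share with both gamergates below in batch A was 88.6% in the first set and 11.1% in the second, 18.5% in the second with quantile normalization, and 51.4% in the cluster of batch C alone that was closest to either set. The cause of these shifts was not tested. Correlations of the deviations of same-numbered ants ran from -0.29 to 0.37 between gamergates and transition workers, with a median of 0.07. Between gamergates and stable workers they ran from -0.17 to 0.49, where the ants numbered 1, 2, 6 and 7 came from different batches. In batch A, numbers 1 and 2 of gamergates and transition workers gave the same value of 0.18, since deviations within 2 ants mirror each other. They were not set against ants of different numbers, so whether the replicate number marks a pairing is not settled. Other results kept their direction and count: 0 calls between both kinds of worker and 0 between batches in all settings. Genes with a median of 11 reads or fewer are limited by depth.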
